A study of Mus musculus with 6 samples.

Results

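The nuclei described here were selected by marker genes as committed oligodendrocyte precursors from photothrombotic (PT) lesions of mouse cortex. Such cells belong to the oligodendrocyte lineage, between the dividing precursor and the myelinating cell. A nucleus was a member when at least 4 of 7 marker genes (Bcas1, Gpr17, Neu4, 9630013A20Rik, Nkx2-2, Inava and Enpp6) had a unique molecular identifier (UMI) in it, when at most 1 of 5 exclusion genes (Mog, Opalin, Ptprc, Csf1r and Col1a2) had one, and when Pdgfra and Cspg4 were not both detected. Nuclei first had to hold at least 1000 UMIs with under 5% of them mitochondrial. The rule selected 684 of 60729 nuclei, or 1.13% (1.04 to 1.21%, exact Clopper-Pearson 95% interval, as for all shares below). Because measured values of these genes chose the members, their levels are given as a description.

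Lesions were dissected from adult C57BL/6 mice 7 or 21 days after injury (days post injury, dpi), and nuclei were sorted by DAPI and captured in droplets for single-nucleus RNA sequencing of transcript 3′ ends. PT injury closes cortical vessels with a light-activated dye, Rose Bengal. Ctrl mice were wild type. Tgfbr2-cKO mice were Col1a2(creER); Tgfbr2 fl/fl animals, in which tamoxifen removes the type II TGFβ receptor from Col1a2-expressing fibroblasts. ADWA11 mice received a blocking antibody against integrin αvβ8, an activator of latent TGFβ, on the day of injury and weekly after it. Each condition was sampled at both times as 1 library pooled from 1 male and 1 female mouse. Replicate libraries were lacking, the labels assign no nucleus to a mouse, no test across mice was run, and every interval below covers counting error only. Where 3 values of one time are listed, they are in the order Ctrl, ADWA11, Tgfbr2-cKO.

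Oligodendrocyte precursors carry the receptor PDGFRα and the proteoglycan NG2 (Cspg4) and keep dividing in the adult brain. On commitment they leave the cell cycle, lose both proteins and pass through a short premyelinating stage before the myelin genes are switched on. GPR17, a G protein-coupled receptor that restrains maturation, BCAS1, which marks early myelinating cells, and ENPP6, a choline phosphodiesterase of newly forming oligodendrocytes, are characteristic of that stage.

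Promoter sequences are shown for a pair of markers of the stage and for Bmp4, the gene outside the rule whose lowest ratio over both neighbouring stages, among the libraries compared, was the highest. RefSeq promoters (build GRCm38.p6, 250 bases before to 50 after the transcription start) were found for 5 of the 7 markers, with none for Bcas1 and Gpr17. They lie at chr8:46986637-46986936 (Enpp6, plus strand), chr14:84476375-84476674 (9630013A20Rik, minus strand) and chr14:46390620-46390919 (Bmp4, minus strand). Capitals mark, on either strand, the E-box CAGNTG, of the kind bound by basic helix-loop-helix factors such as OLIG2, and the core ACAANG, of the kind bound by SOX factors such as SOX10.
Enpp6: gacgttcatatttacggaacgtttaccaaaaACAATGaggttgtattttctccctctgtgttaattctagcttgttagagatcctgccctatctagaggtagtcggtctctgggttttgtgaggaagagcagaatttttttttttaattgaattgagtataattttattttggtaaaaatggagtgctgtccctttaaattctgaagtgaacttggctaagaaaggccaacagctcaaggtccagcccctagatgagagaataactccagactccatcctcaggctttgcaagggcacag
9630013A20Rik: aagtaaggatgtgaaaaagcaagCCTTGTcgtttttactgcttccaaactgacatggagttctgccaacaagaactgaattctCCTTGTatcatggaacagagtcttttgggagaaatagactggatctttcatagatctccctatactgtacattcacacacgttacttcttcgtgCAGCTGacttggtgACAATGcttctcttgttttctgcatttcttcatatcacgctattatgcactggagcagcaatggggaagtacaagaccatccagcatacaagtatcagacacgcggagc
Bmp4: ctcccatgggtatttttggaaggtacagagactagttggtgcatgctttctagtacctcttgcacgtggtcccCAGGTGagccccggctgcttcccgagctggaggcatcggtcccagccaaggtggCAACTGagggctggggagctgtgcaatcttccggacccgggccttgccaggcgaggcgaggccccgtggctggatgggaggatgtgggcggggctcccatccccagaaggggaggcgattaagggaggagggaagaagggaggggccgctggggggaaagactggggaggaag
The Enpp6 window held 1 SOX core, at -219 from the start, and no E-box. The 9630013A20Rik window held 3 SOX cores and 1 E-box, and the Bmp4 window held 2 E-boxes, at -177 and -123, and no SOX core. An E-box was present in 51.4% of all 32851 promoters and in 3 of the 5 marker promoters, and a SOX core in 41.2% of all promoters and in 3 of the 5. These matches describe letters and not binding.

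The libraries held 64798965 to 140310354 UMIs, and 6328 to 12656 nuclei per library passed the filter. A member had a median of 9064.5 UMIs, with library medians from 6984 in Tgfbr2-cKO at 7 dpi to 10845 in Ctrl at 21 dpi. Pairs of libraries shared 21 to 61 barcodes, and no barcode was a member in 2 or more libraries. Ctrl at 7 dpi stood apart in Gm42418, which overlaps ribosomal RNA sequence, at 6934 CPM (UMIs of a gene scaled to a common total) in members against 1608 to 2904 CPM in the other 5 libraries, and at 8326 CPM in its myeloid nuclei. In nuclei with at least 3 of 5 fibroblast genes (Col1a1, Col3a1, Dcn, Lum and Pdgfrb), the Tgfbr2 level at 7 dpi was 340 CPM for Ctrl against 179 CPM for Tgfbr2-cKO, and the levels at 21 dpi were 227 and 178 CPM. The methods name floxed alleles of exon 2 and of exon 4 without saying which these mice carried, and neither exon is at the 3′ end that was read, so these levels do not check the deletion. Fibroblast RNA was detected in members: Col1a2 was found at 7 dpi in 49.0, 46.3 and 6.38% of the members, and at 21 dpi in 71.1, 50 and 8.70%. In the myeloid nuclei of the same libraries it was found in 65.8, 53.9, 4.71, 80.3, 65.7 and 9.64%.

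The label was checked on Olig1, Olig2 and Sox10, transcription factors that define the lineage and were not in the rule. At least 1 of the 3 was detected in 635 members, 92.8%, and Sox10 alone in 90.1%. In 18893 myeloid nuclei, which should lack these genes and had a median depth of 6317 UMIs, the shares were 3.91% and 3.08%. With every nucleus thinned to 2000 UMIs the share with at least 1 of the 3 was 53.4% in members and 1.08% in myeloid nuclei. At full depth Olig1 was detected in 15.8% of members and 34.2% of precursors, and Olig2 in 23.8% and 34.6%. The 3 genes check the lineage and not the stage, since Sox10 was also detected in 90.8% of precursors, a class that requires a lineage gene. The rule left out only nuclei with both Pdgfra and Cspg4. Pdgfra was detected in 25.7% of members and in 37.6% of those with 4 markers, and Cspg4 in 10.2% and 8.44%. Members with 4, 5, 6 and 7 markers numbered 237, 184, 165 and 98. Just inside the rule, the 237 nuclei with 4 markers had a lineage gene in 89.0% and Enpp6 in 26.2%. Just outside it, the 296 nuclei with 3 markers had a lineage gene in 79.7%, Enpp6 in 26.7% and Mog, a late myelin gene, in 17.2%. Of the 1257 nuclei with 4 markers or more, 190 were left out for holding both Pdgfra and Cspg4 and 383 for 2 or more exclusion genes. The latter had a median of 16185 UMIs, and 219 of them were called doublets by a simulation, as were 55 of the 684 members. Col1a2 was among the exclusion genes in 295 of the 383. By library, the nuclei left out for exclusion genes numbered 74, 181 and 41 at 7 dpi, of which 60, 150 and 8 held Col1a2, and 61, 9 and 17 at 21 dpi, of which 60, 9 and 8 held it.

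The markers were detected unequally. Bcas1 was present in 99.6% of members, 9630013A20Rik, an uncharacterised transcript, in 83.8%, Inava in 80.6% and Nkx2-2, a homeodomain factor that promotes differentiation, in 77.8%. Gpr17 was found in 62.6%, the sialidase Neu4 in 62.1% and Enpp6 in 51.8%. In myeloid nuclei the 7 shares lay between 1.11% for Neu4 and 5.70% for Bcas1. Enpp6 was detected at 7 dpi in 56.3, 42.5 and 63.8% of members, and at 21 dpi in 71.1, 60 and 65.2%, so ADWA11 at 7 dpi was lowest. Gpr17 was detected at 7 dpi in 40.6, 68.0 and 63.1%, and at 21 dpi in 55.6, 60 and 78.3%, so Ctrl at 7 dpi was lowest. In members thinned to 2000 UMIs, the Enpp6 shares at 7 dpi were 45.2, 28.2 and 46.8%, with ADWA11 still lowest, whereas the Gpr17 shares were 16.1, 24.7 and 28.8% with overlapping intervals.

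Members made up a different share of the nuclei in each library, and the largest share was in ADWA11 at 7 dpi. There were 96 members in Ctrl (1.21%, 0.985 to 1.48%), 369 in ADWA11 (3.38%, 3.05 to 3.74%) and 141 in Tgfbr2-cKO (1.30%) at 7 dpi. At 21 dpi there were 45 in Ctrl (0.373%), 10 in ADWA11 (0.079%) and 23 in Tgfbr2-cKO (0.363%). The ADWA11 share was thus above Ctrl at 7 dpi, with a log2 ratio of 1.48 (1.15 to 1.82), and below it at 21 dpi, with a log2 ratio of -2.24 (-3.39 to -1.23). Ctrl at 21 dpi was below Ctrl at 7 dpi, with a log2 ratio of -1.70 (-2.25 to -1.18). The ratio of Tgfbr2-cKO over Ctrl was 0.10 at 7 dpi (-0.29 to 0.49). At 21 dpi it was -0.04 (-0.83 to 0.72), and both intervals held 0.

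These ratios moved with depth, with the marker minimum and with the other nuclei captured. With nuclei thinned to 2000 UMIs the ADWA11 ratio at 7 dpi was 0.86, and with 3 markers in place of 4 it was 1.02. Nuclei called female and male by sex-linked genes, which come from 1 mouse each per library, gave 1.15 and 1.82. For Tgfbr2-cKO at 7 dpi they lay on opposite sides of 0, at -0.75 (-1.36 to -0.13) in female and 0.99 (0.36 to 1.63) in male nuclei. In that library 59.1% of the nuclei held at least 3 of 6 neuron genes. With such nuclei taken out of the denominator only, its ratio was 1.36. The neuron-marked members, 30 in Tgfbr2-cKO and 2 in Ctrl, stayed in the numerator, so this ratio does not match like with like. With 3 markers in place of 4 the Tgfbr2-cKO ratio at 21 dpi was 1.01. With Col1a2 left out of the exclusion genes, the ADWA11 ratios were 1.35 at 7 dpi and -2.37 at 21 dpi, those of Tgfbr2-cKO -0.20 (-0.56 to 0.16) and -0.58 (-1.28 to 0.085), and that of Ctrl over time -1.30. A smaller share from fewer cells of this stage and one from more captured cells of other types cannot be told apart here.

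Within the oligodendrocyte lineage the libraries fell in another order. Members were set against 523 precursors (Pdgfra and Cspg4 both detected, with a lineage gene) and 859 mature oligodendrocytes (Mog and Opalin both detected), and made up 33.1% of these nuclei together. At 7 dpi they were 53.3% of the lineage in Ctrl (45.8 to 60.8%), 61.3% in ADWA11 and 21.8% in Tgfbr2-cKO, and at 21 dpi 25.6, 23.3 and 5.52%. Both Tgfbr2-cKO libraries were below their Ctrl, with log2 ratios of -1.29 (-1.68 to -0.90) and -2.21 (-3.00 to -1.46). The ADWA11 ratios were 0.20 (-0.13 to 0.54) and -0.14 (-1.29 to 0.87), and both intervals held 0. Mature oligodendrocytes numbered 25, 31 and 373 at the earlier time and 78, 17 and 335 at the later, so the Tgfbr2-cKO libraries were high in these. Precursors, like members, were a larger share of nuclei in ADWA11 than in Ctrl at 7 dpi, at 1.85% and 0.746% (1.31, 0.89 to 1.75). Female and male nuclei gave -1.96 and -0.36 for the lineage share of Tgfbr2-cKO at 7 dpi, and the male interval (-0.99 to 0.28) held 0. With 3 markers in place of 4 the ratio at 21 dpi was -1.21.

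**Figure D1:**
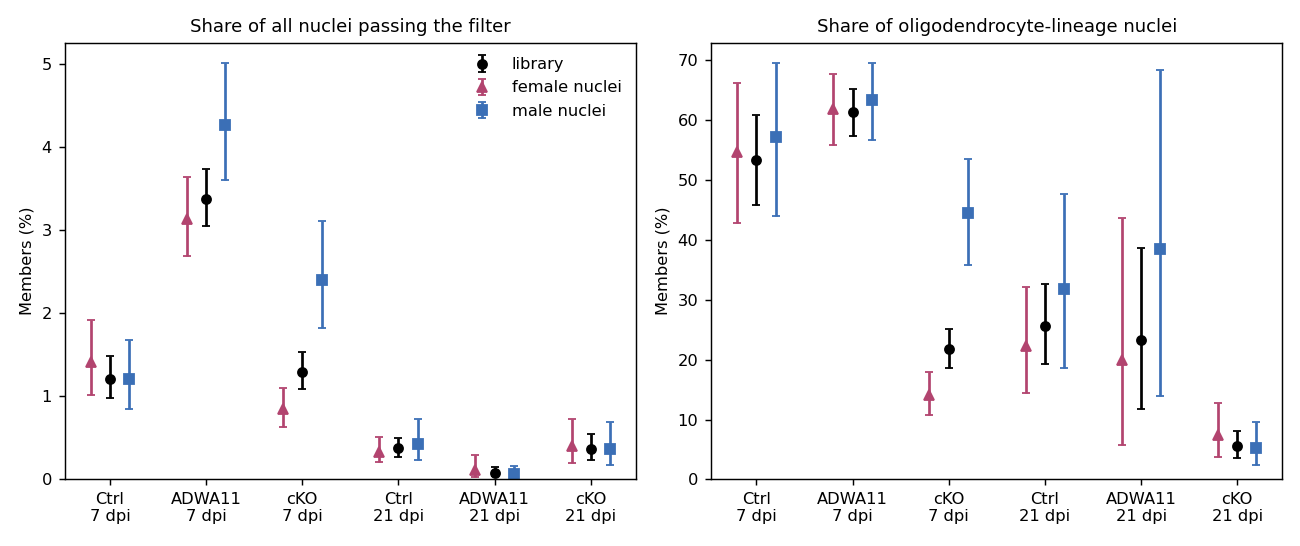
Members as a percentage of all nuclei passing the filter (left) and of oligodendrocyte-lineage nuclei (right) in the 6 libraries, with exact 95% intervals for counting error, for the whole library and for nuclei called female and male (1 mouse each). ADWA11 at 7 dpi is highest on the left at 3.38%, and Tgfbr2-cKO at 21 dpi is lowest on the right at 5.52%.

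The members were then compared with the stages on either side within each library. Levels are the UMIs of a gene summed over a class, as CPM, and the 5 libraries with at least 20 members were used. A gene was called when it stood on the same side in every library and by at least 2-fold in the mean of the 5, which 3.39% of 12101 genes did above precursors and 6.26% below them. Against mature oligodendrocytes 8.26% of 12498 genes were called above and 7.27% below. Since the classes were chosen on measured genes, these contrasts are a description with no test.

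Of 17 measured committed-stage genes outside the rule, 16 were called above precursors, with a median log2 ratio of 2.48 against -0.09 over all genes, and 9 were called above mature oligodendrocytes. Fyn, a kinase that acts in process outgrowth and myelination, averaged 2592 CPM in members, 416 in precursors and 433 in mature oligodendrocytes. Tcf7l2, a Wnt effector of oligodendrocyte differentiation, averaged 1383, 249 and 464 CPM, and Tns3, a focal adhesion protein, 1546, 296 and 604 CPM. Prickle1 was an exception among them, at 407 CPM in members, 178 in precursors and 879 in mature oligodendrocytes.

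Precursor genes were still on. Of 12, 11 were called above mature oligodendrocytes and 5 were called below precursors. Ptprz1, a receptor phosphatase, averaged 1484 CPM in members, 3159 in precursors and 67.2 in mature oligodendrocytes. Lhfpl3 was lower than in precursors in 5 of 5 libraries (5988 against 8646 CPM), whereas Sox6, which holds precursors undifferentiated, was higher in 5 of 5 (3551 against 2816 CPM). Tnr, a matrix glycoprotein, was called above precursors, at 9507 against 4466 CPM. The myelin and maturation genes were intermediate, with 12 of 18 called above precursors and 18 of 23 below mature oligodendrocytes. Mbp, which encodes myelin basic protein, averaged 974 CPM in members, 61.3 in precursors and 3195 in mature oligodendrocytes. Mobp, a later myelin gene, averaged 58.5 CPM in members and 1473 CPM in mature oligodendrocytes.

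Cell-cycle genes were lower than in precursors, with 15 of 20 called. Top2a, needed to separate replicated chromosomes, was detected in 8.04% of members, 28.3% of precursors and 1.05% of mature oligodendrocytes, a postmitotic type with a median depth of 6007 UMIs. These shares pool unequal libraries. Within each library precursors were above members, at 7 dpi with 32.2, 43.1 and 16.4% against 6.25, 11.9 and 2.13%. Mature oligodendrocytes were not below members throughout, with 3 of 25 (12%) in Ctrl at 7 dpi and 1 of 17 in ADWA11 at 21 dpi, where no member had Top2a. Of the lineage transcription factors, 3 of 20 were called above precursors and 6 below. Sox4 averaged 175 CPM in members against 69.7 in precursors, and Zeb2, which promotes myelination, 3303 against 1377 CPM. Etv1 was at 47.8 against 185 CPM. Zfp536 was at 296 CPM in members and 2786 CPM in mature oligodendrocytes.

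Ordered by the lowest ratio over the 5 libraries, the genes that stood above both neighbours began with Bmp4, a ligand that inhibits oligodendrocyte differentiation, at 229 CPM in members, 27.0 in precursors and 10.3 in mature oligodendrocytes. In members it was at 210, 195 and 184 CPM at 7 dpi, and at 21 dpi at 197 CPM in Ctrl and 356 CPM, the highest level, in Tgfbr2-cKO. The next 14 by the same order were Arhgap24, Fam163a, Col9a1, Gm13052, Pdcd4, Fyn, Csgalnact1, Tuba1a, Itpr2, Ptpro, Sh3rf1, Trit1, Epb41l2 and Igsf9b. Fam163a had larger mean folds, 14.9 over precursors and 47.0 over mature oligodendrocytes, than Bmp4, 8.45 and 22.1. Arhgap24, a GTPase-activating protein for Rac, averaged 1512 CPM against 292 and 82.9 CPM. Itpr2, an intracellular calcium channel known to mark this stage, averaged 1905 CPM against 487 and 305 CPM. Promoters were matched for 10 of the 15, as 12 entries, and 8 of the 12 held an E-box and 4 a SOX core.

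**Figure D2:**
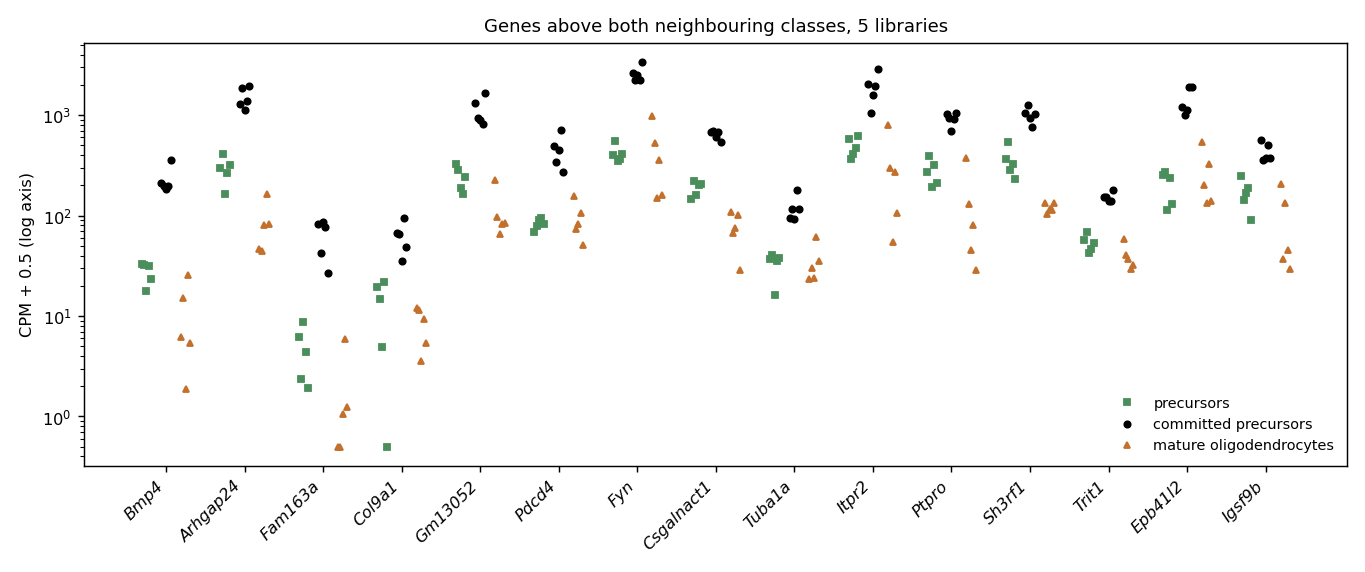
CPM + 0.5 on a log axis of the 15 genes outside the rule that stood highest above both neighbouring classes by their lowest ratio, with 1 point per class for each of the 5 libraries compared. Within each library the members lie above precursors and mature oligodendrocytes, and Bmp4 averaged 229 CPM against 27.0 and 10.3 CPM.

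Members were not uniform, and detection of Gpr17 and Enpp6 put them in an order. Gpr17 alone was detected in 207 members, both genes in 221, Enpp6 alone in 133 and neither in 123. Committed-stage genes outside the rule summed to 5436 CPM with Gpr17 alone, 18107 CPM with both and 28342 CPM with Enpp6 alone, and the myelin genes to 1823, 5529 and 7680 CPM. Precursor genes ran the other way, at 28159, 24382 and 19610 CPM. Members with neither gene were close to those with Gpr17 alone, at 4208 CPM for committed-stage and 28132 CPM for precursor genes. In precursors the committed-stage genes summed to 2746 to 3061 CPM over the libraries, so in these genes the members with Gpr17 alone or neither gene lay nearer to precursors than to the other members, and their label rests on the rule. Median depths of the 4 sets ran from 7705 to 9750 UMIs. The sets were cut on rule genes and pool the 6 libraries, with 144 of the 207 Gpr17-only members from ADWA11 at 7 dpi, so these values are a description. Divided by Enpp6 detection only, precursor genes lay close together in Tgfbr2-cKO at 7 dpi, at 18388 CPM with Enpp6 and 18685 CPM without it.

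Frmd4a, a scaffold protein of cell polarity, was at 301 CPM with Gpr17 alone, 4520 CPM with both and 10493 CPM with Enpp6 alone, and Tmem163, a zinc transporter, at 102, 690 and 1225 CPM. Mbp was at 118, 997 and 1894 CPM in the same order. Vcan, a matrix proteoglycan of precursors, was at 3416, 2238 and 1295 CPM. Top2a was at 77.7, 9.21 and 25.6 CPM, and at 207 CPM with neither gene. Bmp4 did not follow this order and was highest with both, at 279 CPM, as was Fyn at 3442 CPM.

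Other gene groups also differed along this order. Guidance and adhesion genes summed to 11283 CPM with Gpr17 alone, 18031 CPM with both and 21445 CPM with Enpp6 alone. Channel genes ran the other way, at 3199, 1812 and 1674 CPM, and so did Notch pathway genes, at 3203, 2116 and 1842 CPM. The interferon and MHC genes were at 312, 300 and 355 CPM and the cholesterol synthesis genes at 229, 221 and 250 CPM, with no such gradient. Committed-stage genes also ran with the number of markers, from a median of 0.51% of a nucleus's UMIs with 4 markers to 1.35% with 7, while precursor genes were at 2.82% and 2.66%.

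**Figure D3:**
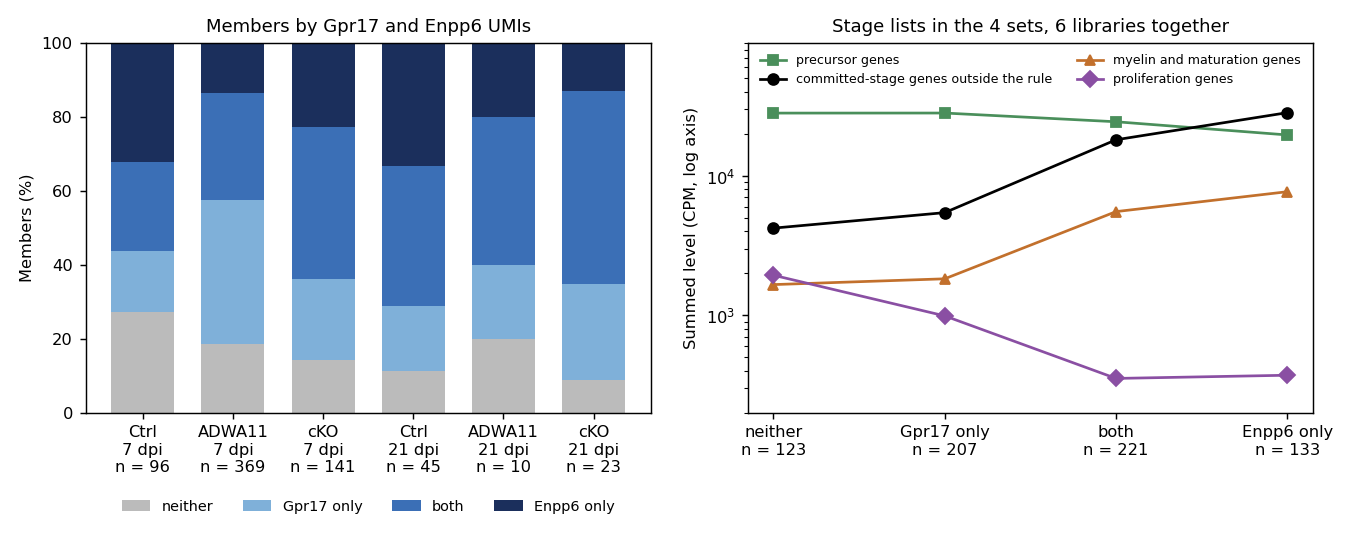
Left, members of each library by whether a Gpr17 or an Enpp6 UMI was detected, as a percentage of the library's members. Right, summed CPM on a log axis of 4 gene lists in the 4 sets, all 6 libraries together. Gpr17-only nuclei are the largest set in ADWA11 at 7 dpi, with 144 of 369, and committed-stage genes run from 5436 CPM with Gpr17 alone to 28342 CPM with Enpp6 alone.

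ADWA11 against Ctrl at 7 dpi addressed how the stage differed in mice given the antibody against αvβ8. In ADWA11 members the cell-cycle genes were higher and the committed-stage genes lower. Of 11548 genes with at least 20 UMIs over both libraries, 949 (8.22%) were at least 2-fold higher in ADWA11 members and 697 (6.04%) at least 2-fold lower, and the median log2 ratio over all genes was 0.03. Each list is given below by its counts, its median log2 ratio and, in parentheses, the medians of its genes' lower and upper 95% limits. Proliferation genes were higher in 20 of 20, 10 of them by at least 2-fold, with a median of 1.03 (0.42 to 1.93). They summed to 1127 CPM in ADWA11 and 546 CPM in Ctrl. Per nucleus they took a median of 0.023% of the UMIs in ADWA11 and 0.020% in Ctrl, with upper quartiles of 0.045 and 0.034% and highest values of 1.34 and 1.14%. The medians thus lay closer together than the sums, to which few nuclei gave much. Markers of other cells moved too, with neuron markers at 797 and 1883 CPM and fibroblast markers at 406 and 744 CPM in ADWA11 and Ctrl members. Their medians were -2.36 and -0.88, and turned to 0.031 for neuron markers in female nuclei and to 0.35 for fibroblast markers in male nuclei. Myeloid markers were higher in ADWA11 members in 8 of 9, at 248 and 182 CPM in sum, with a median of 0.76. The part of these markers in the differences was not tested.

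Mki67, the common marker of cycling cells, was at 74.3 CPM in ADWA11 members and 40.1 CPM in Ctrl members, a log2 ratio of 0.89 (0.37 to 1.45). Ect2, needed for cytokinesis, was at 42.5 and 4.86 CPM (3.13, 1.75 to 5.02). Cep55, which acts at the end of cytokinesis, had 69 UMIs in ADWA11 and 0 in Ctrl, at least 2.18 higher on the log2 scale against a floor of 3 UMIs in the Ctrl library. Top2a was detected in 11.9% (8.80 to 15.7%) of ADWA11 members and 6.25% (2.33 to 13.1%) of Ctrl members, and these intervals overlap. The proliferation genes were also higher in ADWA11 precursors, at 3083 against 2066 CPM, and in myeloid nuclei, at 1561 against 1064 CPM.

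Committed-stage genes were lower in 15 of 17 in ADWA11 members, with a median of -0.68 (-0.95 to -0.48), and summed to 10981 CPM against 19705 CPM in Ctrl. Tcf7l2 was at 919 and 1858 CPM (-1.01, -1.10 to -0.93), Frmd4a at 2344 and 6065 CPM (-1.37, -1.42 to -1.32) and Itpr2 at 1038 and 2061 CPM (-0.99, -1.07 to -0.91). Fyn was lower by less, at 2234 and 2647 CPM (-0.24, -0.31 to -0.18), and the interval of Bmp4 held 0, at 195 and 210 CPM (-0.11, -0.35 to 0.14). Of the myelin genes 13 of 18 were lower, with a median of -0.34. Mbp was at 548 and 1018 CPM (-0.89, -1.01 to -0.78).

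Precursor genes were higher in 7 of 12, with a median of 0.35 (-0.04 to 0.63). Vcan was at 3306 and 1940 CPM (0.77, 0.69 to 0.84) and Ptprz1 at 2126 and 1335 CPM (0.67, 0.58 to 0.76), whereas Lhfpl3 was lower, at 6576 and 8644 CPM (-0.39, -0.43 to -0.36). Among the rule genes, Enpp6 was at 310 and 658 CPM and Gpr17 at 137 and 81.5 CPM. Of the guidance and adhesion genes 13 of 17 were lower. Nfasc, an adhesion protein that oligodendrocytes use at the axon, was at 1404 and 2865 CPM (-1.03, -1.10 to -0.96).

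**Figure D4:**
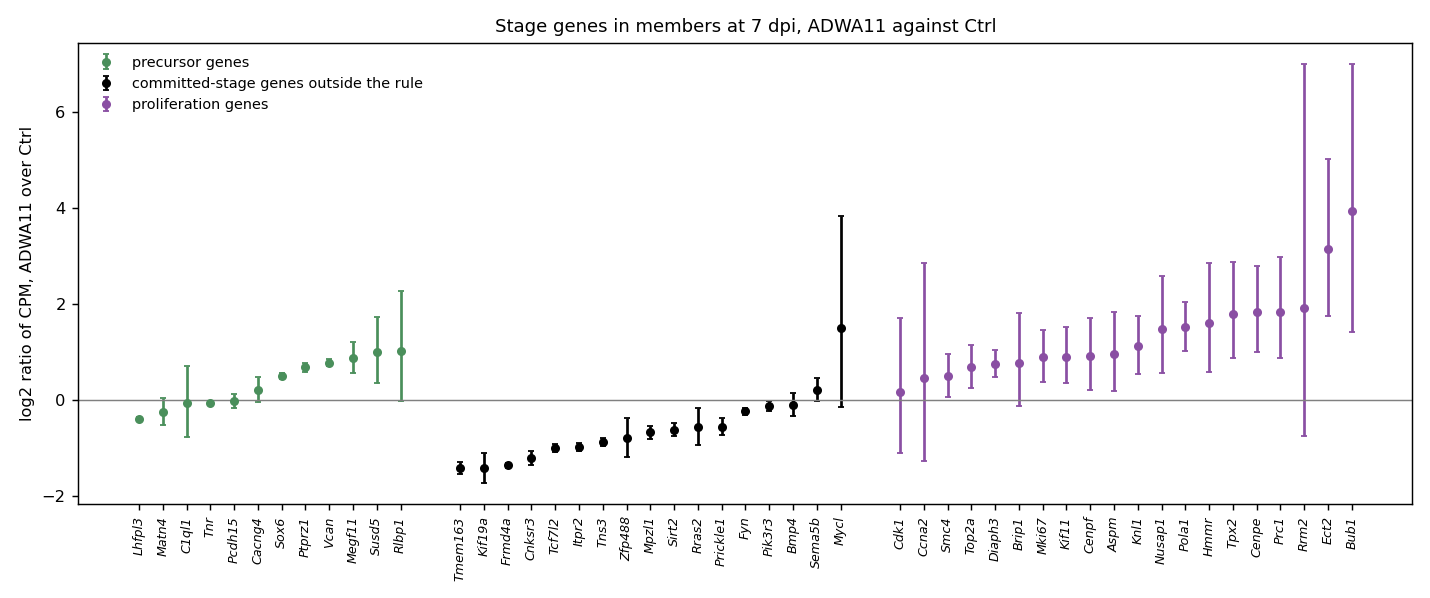
log2 ratio of CPM in members, ADWA11 over Ctrl at 7 dpi, for each measured gene of 3 lists (precursor, committed-stage and proliferation genes), with exact 95% intervals cut at the edge of the axis and bounds drawn where a library had 0 UMIs. Values above 0 are higher in ADWA11, where the 20 proliferation genes lie, and 15 of the 17 committed-stage genes lie below 0.

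Members with and without an Enpp6 UMI were both a larger share of nuclei in ADWA11. Enpp6 is a rule gene whose detection depends on depth, and the median depth was 10192 UMIs in ADWA11 and 7426.5 UMIs in Ctrl members, so the division is a description. Members without an Enpp6 UMI were 1.94% of its nuclei against 0.531% in Ctrl, a log2 ratio of 1.87 (1.39 to 2.38), and members with one were 1.44% against 0.683%, a log2 ratio of 1.07 (0.62 to 1.55). Between members without Enpp6, proliferation genes were higher in 18 of 19, with a median of 1.37 (0.55 to 2.27) and sums of 1684 and 689 CPM. Between members with Enpp6 they were lower in 11 of 14, with sums of 433 and 448 CPM. Top2a was detected in 36 of 212 ADWA11 members without Enpp6 (17.0%, 12.2 to 22.7%) and in 8 of 157 with it (5.10%, 2.23 to 9.79%).

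Among the Enpp6-positive members, committed-stage genes were lower in ADWA11. They were lower there in 13 of 17, with a median of -0.56 (-0.80 to -0.31) and sums of 18550 and 29311 CPM, and precursor genes were higher in 11 of 12 (0.77, 0.40 to 1.16). Between members without Enpp6 the medians were -0.26 (-0.77 to 0.06) and -0.03 (-0.46 to 0.42). The division by Enpp6 was chosen after the data were seen. The Enpp6-positive members also differed in make-up. Gpr17 was detected with Enpp6 in 23 Ctrl and 107 ADWA11 members, and Enpp6 alone in 31 and 50. Over all libraries together, committed-stage genes summed to 18107 CPM with both genes and 28342 CPM with Enpp6 alone. The part of this mix and of depth in the differences was not tested.

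Erbb4, a neuregulin receptor, was at 1087 CPM in Ctrl members at 7 dpi, 3154 in ADWA11 and 1787 in Tgfbr2-cKO, and at 2539, 3002 and 2900 CPM at 21 dpi, so Ctrl at 7 dpi stood lowest. Its log2 ratio was 1.54 (1.44 to 1.64) for ADWA11 over Ctrl at 7 dpi. Genes associated with oligodendrocytes of diseased tissue were lower in ADWA11 members in 5 of 7, with a median of -0.51, which was 0.024 in female nuclei. C4b, a complement component, was at 41.4 and 259 CPM (-2.65, -2.94 to -2.35), and Serpina3n, a secreted protease inhibitor, at 2.63 and 38.9 CPM (-3.89, -5.02 to -2.86). Both were lower in ADWA11 precursors too, C4b at 37.7 against 173 CPM and Serpina3n at 5.96 against 91.5 CPM. The disease-associated genes were also lower in Tgfbr2-cKO than in Ctrl members. They were lower in 4 of 5 at 7 dpi, with a median of -1.03, and in 3 of 4 at 21 dpi, with a median of -1.23.

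Ordered by the end of the interval nearest 0, the 10 genes furthest above Ctrl in ADWA11 members were Gm32509, Gm20275, Cep55, Ect2, Gm47167, Usp50, Gm48091, Gm41335, 4930517O19Rik and Gm36975. The 10 furthest below were Fstl4, Hpgd, Rasgrf2, Serpina3n, Dnah10, Trpc4, Ermard, Clca3a1, C4b and Gm26673. Gm32509 was at 113 and 10.9 CPM (3.37, 2.43 to 4.50), and Hpgd, which degrades prostaglandins, at 25.8 and 345 CPM (-3.74, -4.07 to -3.42). Of the 10 higher genes, 7 were at least 2-fold higher in ADWA11 precursors and 6 in myeloid nuclei. Of the lower genes, 8 of 8 measured were at least 2-fold lower in precursors and 5 of 10 in myeloid nuclei. The level of Gm20275 in members at 7 dpi was 2.43, 32.7 and 18.9 CPM, and that at 21 dpi 60.4, 120 and 17.6 CPM. Ctrl at 7 dpi, with 2 UMIs, was the low library. At 21 dpi 1 UMI was 9.97 CPM in ADWA11 and 4.401 CPM in Tgfbr2-cKO members, so their levels rest on few UMIs.

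Itgb8, the β8 subunit that ADWA11 binds, was detected in 40.4% of members, 66.7% of precursors, 41.2% of mature oligodendrocytes and 8.91% of myeloid nuclei, shares that pool unequal libraries. By library, the share at 7 dpi was 25, 49.3 and 26.2% in members and 44, 71.0 and 38.1% in mature oligodendrocytes, which were higher. At 21 dpi the shares were 42.2, 50 and 39.1% in members and 41.0, 76.5 and 40% in mature oligodendrocytes. Precursors were above members in each library, from 53.7 to 83.1%. Its level in members at 7 dpi was 54.7, 120 and 44.5 CPM, and that at 21 dpi 161, 140 and 123 CPM. Ctrl and Tgfbr2-cKO at 7 dpi were thus low, and the ratio of ADWA11 over Ctrl at 7 dpi was 1.14 (0.70 to 1.61). Among members without Enpp6 at 7 dpi, Itgb8 was detected in 60.4% (53.5 to 67.0%) in ADWA11 and 23.8% (12.1 to 39.5%) in Ctrl, and among members with it in 34.4% (27.0 to 42.4%) and 25.9% (15.0 to 39.7%).

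Most of the TGFβ and BMP pathway genes had intervals that held 0, as did most of all genes measured. Of 31 measured in ADWA11 and Ctrl members at 7 dpi, 15 were higher and 16 lower, with 3 past 2-fold each way and a median of -0.08. In Tgfbr2-cKO members 21 of 25 were lower at 7 dpi (-0.30, -0.81 to 0.16) and 14 of 20 at 21 dpi (-0.40, -1.12 to 0.30). The intervals of 8 of the 25 and 7 of the 20 lay below 0, against 1369 of 9190 and 820 of 5574 over all genes. That difference was not tested. Their sum at 7 dpi had a log2 ratio of -0.26 in members, -0.77 in precursors and -0.67 in myeloid nuclei. Past 2-fold were 1 higher and 2 lower at 7 dpi, where 9.54% of all genes were higher and 5.53% lower, and 2 higher and 4 lower at 21 dpi, where the shares of all genes were 6.05% and 15.4%. Counts this small do not stand apart from those shares. Smad1, a BMP effector, was at 211 CPM in ADWA11 and 120 CPM in Ctrl members at 7 dpi (0.81, 0.51 to 1.12). Itgav, the αv partner, was at 175, 110 and 106 CPM (7 dpi) and 225, 110 and 114 CPM (21 dpi), highest in both Ctrl libraries. Tgfbr1, the type I receptor, was at 118, 136 and 88.2 CPM and at 151, 249 and 150 CPM. Tgfbr2 was low in members, at 42.5, 17.2 and 9.80 CPM at 7 dpi and 48.3, 29.9 and 4.401 CPM at 21 dpi. It was lowest in both Tgfbr2-cKO libraries. At 21 dpi 1 UMI was 4.401 CPM in Tgfbr2-cKO and 9.97 CPM in ADWA11 members, so single-gene levels there rest on few UMIs. The order of ADWA11 and Tgfbr2-cKO in Tgfbr2 at 21 dpi was not tested. Fibroblast markers in members were also lowest in the Tgfbr2-cKO libraries, at 61.8 and 48.4 CPM against 744 and 986 CPM in Ctrl. The part of these markers in the Tgfbr2 level was not tested.

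Tgfbr2-cKO against Ctrl at 7 dpi addressed how the stage differed in mice bred to delete the receptor from fibroblasts. Neuron RNA moved with this comparison. Of 141 Tgfbr2-cKO members 30 held at least 3 of 6 neuron genes, against 2 of 96 in Ctrl, and 16 of the 30 and 0 of the 2 were called doublets. Neuron markers summed to 6637 and 1883 CPM in Tgfbr2-cKO and Ctrl members and to 10430 and 1238 CPM in myeloid nuclei. Of 9190 genes, 877 (9.54%) were at least 2-fold higher and 508 (5.53%) at least 2-fold lower in Tgfbr2-cKO members. Without the neuron-marked members the first count was 341. All 9 measured neuron markers were past 2-fold higher, as were 12 of 21 glutamate and GABA receptor genes. The 10 genes furthest above Ctrl included Cdh18, Cntn5 and Grm3. The 10 furthest below included Postn, Aebp1, Plekhg2, Igfbp7, Col27a1, Glis3, Gm42418, Igf1 and Taco1. Igf1 was at 7.54 and 59.6 CPM in Tgfbr2-cKO and Ctrl members and at 251 and 985 CPM in their myeloid nuclei. Of the higher genes 10 were at least 2-fold higher in myeloid nuclei too and 9 in precursors, and the 10 lower ones were at least 2-fold lower in both.

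Committed-stage genes were lower in 13 of 16 in Tgfbr2-cKO members at 7 dpi (median -0.37, -0.50 to -0.22), precursor genes in 10 of 12 (-0.40, -0.71 to -0.10) and proliferation genes in 10 of 12 (-1.32, -2.12 to -0.38), 7 of them by at least 2-fold. Proliferation genes summed to 327 CPM against 546 CPM in Ctrl members, and were lower too in precursors, at 963 against 2066 CPM, and in myeloid nuclei, at 590 against 1064 CPM. Myelin genes were split, with 7 higher and 9 lower. With the neuron-marked members left out, the committed-stage median was 0.05, the precursor median -0.07 and the myelin median 0.37. The committed-stage and myelin medians thus changed sign, from -0.37 and -0.11. In male nuclei the proliferation median was 0.27. Among the rule genes, which chose the members, Nkx2-2 was at 192 CPM against 388 CPM in Ctrl. Rras2, a small GTPase, was at 188 against 89.96 CPM (1.06, 0.68 to 1.46), with 30.1% of its 249 Tgfbr2-cKO UMIs in 1 nucleus. Ltbp1, which tethers latent TGFβ to matrix, was at 143 against 43.8 CPM (1.70, 1.18 to 2.26).

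At 21 dpi the comparison rested on 23 Tgfbr2-cKO and 45 Ctrl members, of which 0 and 7 were called doublets. Of 5574 genes, 337 (6.05%) were at least 2-fold higher and 859 (15.4%) at least 2-fold lower in Tgfbr2-cKO members, with a median of -0.09 over all genes. Without doublets the counts were 315 higher and 595 lower, of 4832 genes. With all members kept, precursor genes were higher in 8 of 10 (0.66, 0.30 to 0.98), committed-stage genes in 12 of 16 (0.34, 0.19 to 0.55) and myelin genes in 8 of 14 (0.41, 0.09 to 0.79). Mbp was at 1465 and 885 CPM (0.73, 0.52 to 0.94), Bmp4 at 356 and 197 CPM (0.85, 0.41 to 1.29), and Sema5b, a semaphorin, at 563 and 258 CPM (1.13, 0.76 to 1.49). Ltbp1 was high again, at 321 and 14.1 CPM (4.51, 3.40 to 5.88), on 73 UMIs in 12 of the 23 Tgfbr2-cKO members, of which 1 nucleus held 27.4%, and 7 UMIs in 4 Ctrl members. Egfr, a growth factor receptor, was at 8.80 and 304 CPM (-5.11, -8.17 to -3.23) on 2 and 151 UMIs. Other classes were lower in it too, at 48.6 and 336 CPM in precursors, 39.8 and 293 CPM in mature oligodendrocytes and 70.2 and 409 CPM in myeloid nuclei. Vwc2, a secreted BMP antagonist, had 0 and 144 UMIs, a log2 ratio of at most -4.46 against the floor of 3 UMIs. Of the 10 genes furthest below Ctrl, which included Col1a1 and Lama2, 8 were at least 2-fold lower in precursors and 7 in myeloid nuclei. Astrocyte markers were also lower in members, in 6 of 6 and at 260 against 1131 CPM in sum. Fibroblast markers were lower in 6 of 6, at 48.4 against 986 CPM, and endothelial and mural markers were at 13.2 against 227 CPM. The part of these markers in the differences was not tested.

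With time in Ctrl, members were a smaller share of the nuclei and most of their committed-stage and precursor genes were lower. Of 7638 genes, 621 (8.13%) were at least 2-fold higher at 21 dpi and 552 (7.23%) at least 2-fold lower. Committed-stage genes were lower in 13 of 16, with a median of -0.17 (-0.41 to -0.03). That median was -0.50 without doublets, -0.42 with the mean of CPM per nucleus, -0.47 and -0.58 in female and male nuclei and -0.46 in members with an Enpp6 UMI. The myelin median was -0.20, and -0.73 in male nuclei. Precursor genes were lower in 9 of 11 (-0.29, -0.81 to -0.007). Their median was 0.056 with 5 markers and 0.068 in members with an Enpp6 UMI. Proliferation genes were lower in 6 of 8 (-1.12, -2.27 to 0.09). Tcf7l2 was at 1308 and 1858 CPM (-0.51, -0.64 to -0.37). Among the rule genes, which chose the members, Nkx2-2 was at 163 and 388 CPM. Growth factor receptors were higher in 9 of 10 (0.67, 0.22 to 1.21), among them Fgfr2 at 288 and 128 CPM (1.17, 0.80 to 1.55) and Erbb4 at a ratio of 1.22 (1.10 to 1.35). The growth factor receptor genes were higher in precursors too, at 6101 CPM at 21 dpi and 3366 CPM at 7 dpi in sum. Igf2bp2, an RNA-binding protein, had 0 UMIs at 21 dpi and 23 at 7 dpi, a ratio of at most -2.21. Of the 10 genes furthest above, 7 of 9 measured were at least 2-fold higher in precursors and 9 of 10 in myeloid nuclei. Of the 10 furthest below, 5 of 8 measured were at least 2-fold lower in precursors and 4 of 10 in myeloid nuclei. Astrocyte markers were higher in 7 of 7, at 1131 and 281 CPM in sum. Endothelial and mural markers were at 227 and 40.1 CPM and fibroblast markers at 986 and 744 CPM. Neuron markers were lower in 6 of 6, at 815 and 1883 CPM, but their median turned from -1.85 to 0.14 without the neuron-marked members, of which there were 1 and 2. The part of these markers in the differences was not tested. This comparison and both comparisons at 7 dpi share the Ctrl library at 7 dpi.

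The 10 members of ADWA11 at 21 dpi were too few for a comparison gene by gene. Their committed-stage genes summed to 10244 CPM (17164 in Ctrl), their precursor genes to 23231 CPM (21735), their myelin genes to 4509 CPM (5091) and their proliferation genes to 140 CPM (431). Both ADWA11 libraries were thus low in committed-stage genes, at 10981 and 10244 CPM, against 15990 to 21084 CPM in the other 4. The same genes were also lower in ADWA11 than in Ctrl in mature oligodendrocytes, at 9083 and 16769 CPM (7 dpi) and 3112 and 4322 CPM (21 dpi), and in precursors they were at 2853 and 3023 CPM and at 2826 and 3000 CPM. In Tgfbr2-cKO mature oligodendrocytes they were lower still, at 2716 and 2171 CPM, and Ctrl at 7 dpi, with 25 such nuclei, was the high library.

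**Figure D5:**
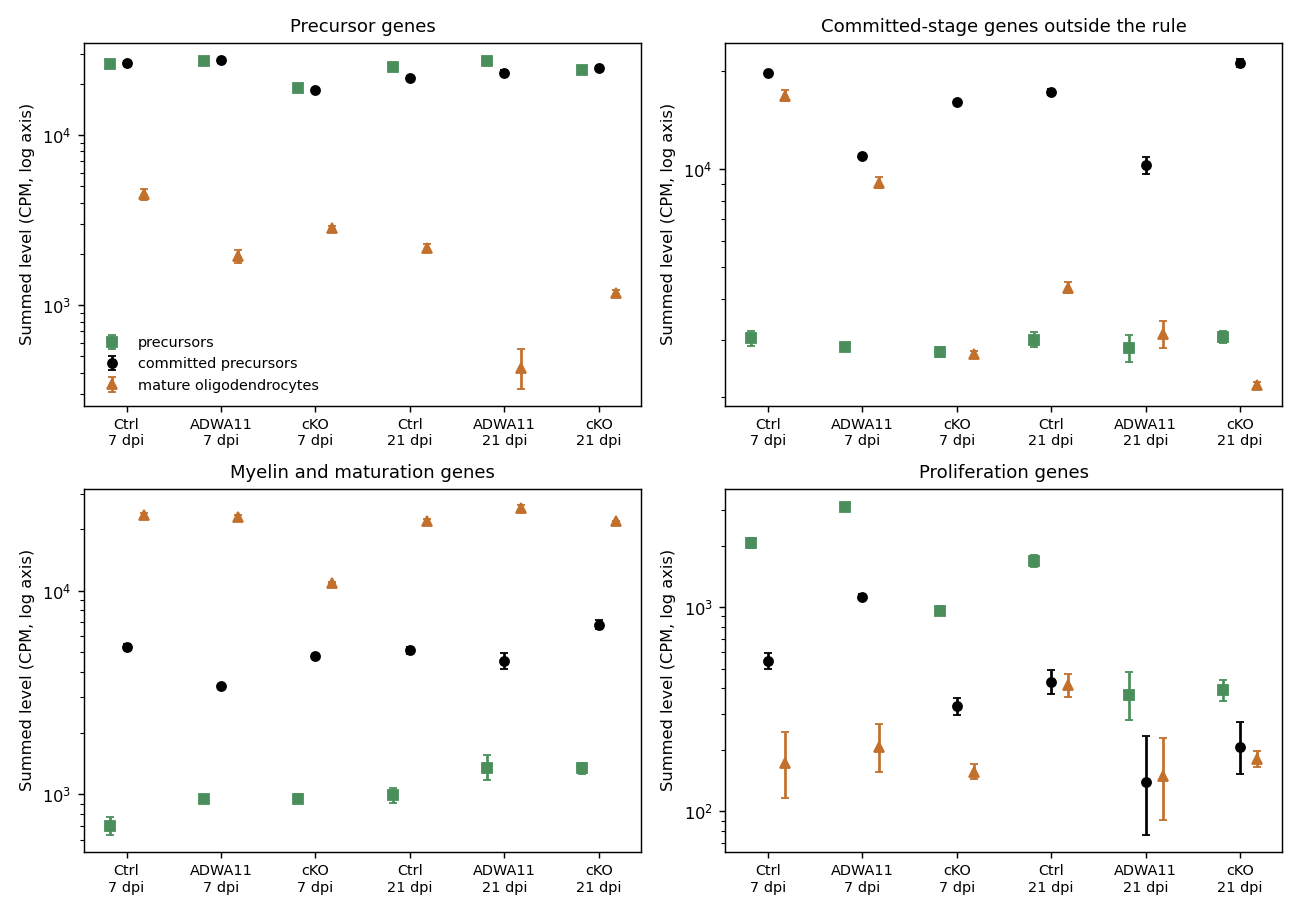
Summed CPM on log axes of 4 gene lists in members, precursors and mature oligodendrocytes of the 6 libraries, with exact Poisson 95% intervals. Committed-stage genes in members are lowest in the ADWA11 libraries, at 10981 and 10244 CPM, and proliferation genes in members are highest in ADWA11 at 7 dpi, at 1127 CPM.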

How the data were processed

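Nuclei of 6 libraries were analysed from filtered matrices. The deposited values are UMI counts per gene and barcode, not normalised, which the authors made with Cell Ranger (7.2.0 per the file headers, 7.1.0 per the submitters' processing notes) on mm10. Of 67360 barcodes, 60729 had at least 1000 UMIs and under 5% mitochondrial UMIs and were used. The members, gene lists and comparisons were chosen with earlier results of these data known. Classes were assigned from detected genes and may differ from the study's.

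UMIs were summed over a class per library and given as CPM of non-mitochondrial UMIs, with exact Poisson limits, ratios with exact conditional binomial limits and shares with Clopper-Pearson limits (Python 3.11.15, numpy 2.4.6, scipy 1.17.1, pandas 2.3.3). The limits cover counting error only, not free RNA in droplets or the spread between nuclei or between mice. For gene levels each UMI was taken as an independent draw, so these limits are too narrow where nuclei differ. Ratios needed 20 UMIs over both libraries and class contrasts 50 over both classes, and a count of 0 was set to a floor of 3 UMIs in that library. Named genes were the rule genes, list genes with the most UMIs or furthest from the list median, and per comparison 10 genes a direction by the interval's end nearest 0, with UMIs in at least 5 nuclei and no nucleus over 25% of them. Up to 15 genes were named against both classes, by their lowest ratio. Doublets were called by simulation (scikit-learn 1.9.0, with 2 simulated per nucleus, 2000 genes, 30 components and 0.8% called per 1000 barcodes) and kept. The summing and ratio step was tested on simulated data that held no spread between nuclei. Alternatives changed the marker minimum, depth, doublets, sex, UMI minimum, averaging, scaling (TMM, edgeR 4.0.16) and denominators. Sequences are from RefSeq, and 32235 of 32285 features matched GENCODE M21. Some genes of the lists are counted in them and are not reported here by name.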

Additional observations from a re-analysis of the deposited data

Results flagged for a closer look

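4 contrasts in the members gave opposite directions in 2 groups, and the difference between the groups was not tested in any of them. The members' share of nuclei in ADWA11 against Ctrl had a log2 ratio of 1.48 at 7 dpi and -2.24 at 21 dpi. The precursor genes had a median log2 ratio, Tgfbr2-cKO over Ctrl, of -0.40 at 7 dpi and 0.66 at 21 dpi. The value at 7 dpi was -0.070 without neuron-marked members, -0.068 with 5 markers, -0.080 in male nuclei and -0.0068 in members with an Enpp6 UMI. The committed-stage genes outside the rule had medians of -0.37 and 0.34 in the same comparisons, and the first turned to 0.05 without the neuron-marked members. The members' share in Tgfbr2-cKO against Ctrl at 7 dpi had a log2 ratio of -0.75 in female and 0.99 in male nuclei, which come from 1 mouse of each sex per library.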

How the results depend on the processing

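All values here are log2 ratios, list medians or counts of genes past 2-fold, and the cause of each change was not tested. Of 1667 alternative values, 1375 stayed within the interval of the reported value or, for counts, within 1.5 times of it, 279 moved further and 13 changed sign from a reported value whose interval excluded 0. A further 103 had the opposite sign to a reported value whose interval held 0. For list medians the interval here runs between the medians of the genes' lower and upper limits. It is not a confidence interval of the median, so these labels are a description. Precision was limited by the members per library (10 to 369) and by 1 library per group. No paired analysis was run, since each group had 1 library. Ratios of female and male nuclei, from 1 mouse each per library, are given without a test. The exclusion of neuron-marked members, the restriction to members with an Enpp6 UMI and the rule without Col1a2 were chosen after seeing the data.

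Where the reported interval excluded 0, direction changed in these cases. For Tgfbr2-cKO at 7 dpi the committed-stage median was 0.012 without doublets, 0.15 in female nuclei and 0.046 without neuron-marked members, and the proliferation median was 0.27 in male nuclei. For ADWA11 at 7 dpi, the disease-associated genes were at 0.024 and neuron markers at 0.031 in female nuclei and fibroblast markers at 0.35 in male nuclei, and in members with an Enpp6 UMI the proliferation genes were at -0.52, Mki67 at -0.39 and Top2a at -1.05. For Ctrl at 21 against 7 dpi, precursor genes were at 0.056 with 5 markers and 0.068 in members with an Enpp6 UMI, and neuron markers at 0.14 without neuron-marked members.

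Among the values below, those of opposite sign are the share of Tgfbr2-cKO at 7 dpi in female nuclei (reported 0.10) and at 21 dpi with 3 markers (-0.04), the myelin medians of Tgfbr2-cKO at 7 dpi (-0.11), and the proliferation medians of Tgfbr2-cKO at 21 dpi (-0.69) and over time (-1.12).

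The share of nuclei moved with 3 markers (Tgfbr2-cKO at 21 dpi 1.01, ADWA11 at 7 dpi 1.02, Ctrl over time -2.25), with thinning to 2000 UMIs (ADWA11 at 7 dpi 0.86, Ctrl over time -1.04), in female nuclei (at 7 dpi Tgfbr2-cKO -0.75, ADWA11 1.15) and in male nuclei (0.99 and 1.82). For Tgfbr2-cKO at 7 dpi it was 1.36 with neuron-marked nuclei out of the denominator and neuron-marked members kept in the numerator. The lineage share moved to -1.21 with 3 markers for Tgfbr2-cKO at 21 dpi, and to -1.96 in female and -0.36 in male nuclei at 7 dpi.

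List medians moved as follows. With 5 markers, precursor genes were at -0.068 in Tgfbr2-cKO and 0.70 in ADWA11 at 7 dpi and committed-stage genes at 0.16 in Tgfbr2-cKO at 21 dpi. Without doublets, myelin genes were at 0.27 in Tgfbr2-cKO at 7 dpi and committed-stage genes over time in Ctrl at -0.50. With the mean of CPM per nucleus, committed-stage genes were at -0.13 and myelin genes at 0.19 in Tgfbr2-cKO at 7 dpi, and committed-stage genes over time at -0.42. In female nuclei, myelin genes were at 0.33 and proliferation genes at -0.34 in Tgfbr2-cKO at 7 dpi, and committed-stage genes at 0.56 in Tgfbr2-cKO at 21 dpi and -0.47 over time. In male nuclei, precursor genes were at -0.080 and 0.29 in Tgfbr2-cKO at 7 and 21 dpi, committed-stage genes at 0.61 in Tgfbr2-cKO at 21 dpi and -0.58 over time, and myelin genes at -0.75 in ADWA11 at 7 dpi and -0.73 over time. Without neuron-marked members, precursor genes were at -0.070 and myelin genes at 0.37 in Tgfbr2-cKO at 7 dpi. In members with an Enpp6 UMI, precursor genes were at -0.0068 in Tgfbr2-cKO and 0.77 in ADWA11 at 7 dpi, and over time committed-stage genes were at -0.46 and proliferation genes at 0.13. With a 1-UMI minimum, proliferation genes were at 0.92 in Tgfbr2-cKO at 21 dpi.

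The reported counts of higher and lower genes were 877 and 508 (Tgfbr2-cKO, 7 dpi), 337 and 859 (Tgfbr2-cKO, 21 dpi), 949 and 697 (ADWA11, 7 dpi) and 621 and 552 over time. With a minimum of 50 UMIs they were 440 and 227, 130 and 299, 461 and 339, and 188 and 217. With a 1-UMI minimum they were 1837 and 3662 (Tgfbr2-cKO, 7 dpi), 4639 and 1921 (Tgfbr2-cKO, 21 dpi), 3881 and 1424 over time, with 5767 lower for ADWA11. For Tgfbr2-cKO at 7 dpi they were 383 and 293 without doublets, and 341 were higher without neuron-marked members.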

Other observations

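Of 18 guidance and adhesion genes measured, 4 were called above precursors in members and 0 below, against 3.39% of all genes above and 6.26% below. Cadm2, a cell adhesion protein, averaged 5969 CPM in members, 4195 in precursors and 2772 in mature oligodendrocytes, and was higher in members than in either in 5 of 5 libraries. Plxnb3, a semaphorin receptor, averaged 232, 65.2 and 191 CPM. Notch1, a receptor that holds precursors undifferentiated, averaged 42.0 CPM in members and 98.6 CPM in precursors, and Bmpr1b, a BMP receptor, 34.5 and 133 CPM. Cd9, a tetraspanin, averaged 466 CPM in members, 304 in precursors and 161 in mature oligodendrocytes.

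Il33, a cytokine of mature oligodendrocytes, averaged 6.68 CPM in members, 14.2 in precursors and 537 in mature oligodendrocytes. Mycl, a MYC family factor, averaged 12.8 CPM in members, 2.11 in precursors and 1.15 in mature oligodendrocytes. Axin2, a Wnt feedback gene, averaged 29.4, 31.6 and 5.22 CPM. These levels describe classes chosen on measured genes and were not tested.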
